A study of Mus musculus with 2 samples.

Results

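The regions described here are stretches of DNase-accessible chromatin in mouse gastrocnemius, the large calf muscle. They lie outside annotated genes and far from the starts of protein-coding transcripts. Peaks of 2 libraries were merged, and merged regions holding a peak of each library were kept and called replicated. A replicated region was counted as far intergenic when it overlapped no gene body of the GENCODE M21 annotation and its nearest protein-coding start site was over 50 kb away. Coding start sites were those of protein-coding transcripts in the GENCODE basic set, so other annotated starts of coding genes were not counted. Of 1676 far regions 5 to 50 kb from their nearest start of any kind, 151 had such a coding gene's start as that site. Within 500 bp this held for 5 of 77. The rule kept 2871 of 32662 replicated regions, or 8.79%. The other replicated regions comprised 15293 at promoters (within 500 bp of any annotated start site), 7776 in introns, 4930 intergenic regions nearer to coding starts and 1792 over exons. A region meeting the far rule was counted there even if it lay at the start of a non-coding transcript.

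The libraries came from 2 male B6CASTF1/J mice aged 36 days, F1 hybrids of a C57BL/6 and a CAST parent, with 1 DNase-seq library from each animal and no treatment or control group. Peak positions are on mm10, the C57BL/6J reference, so CAST alleles were read against the other parent's sequence. The shorter peak lists held 50760 peaks in replicate 1 and 49230 in replicate 2. No total of reads is given in the files used, so the depth of each library is unknown. With 1 group of 2 animals no test between conditions exists. Shares below therefore carry exact Clopper-Pearson 95% intervals, which cover counting error over regions only, and each library's value is given as a separate measurement. Set beside the tissue label, 24 of 49 genes of muscle structure and contraction had a promoter peak in both libraries. So did 14 of 20 genes of fibroblasts and tendon cells, 10 of 20 of endothelium, smooth muscle and pericytes, and 8 of 16 of satellite cells. The counts were 8 of 20 for neurons and Schwann cells and 0 of 16 for macrophages and lymphocytes. The share over all coding genes was not counted, so these counts describe the lists and do not test the label or the presence of a cell type. The signal at Acta1, skeletal muscle actin, was 4.52 in replicate 1 and 1.91 in replicate 2, and at Ckm, muscle creatine kinase, it was 6.45 and 3.37.

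DNase I cuts DNA where nucleosomes are absent or displaced, so peaks of cleavage mark promoters, enhancers, insulators and other sites held open by bound proteins. Within a peak, a short stretch protected from cleavage is a footprint, the trace of a bound factor. Open regions far from genes include distal enhancers, which can act on a promoter over long distances, and sites of CTCF, the zinc finger protein that anchors chromatin loops. In muscle, MyoD-family factors bind E-boxes and MEF2 factors bind an AT-rich element, while NFI and AP-1 factors act at enhancers in many tissues. A muscle also holds satellite cells, fibroblasts, endothelium and nerve, and in a bulk sample a weaker signal from fewer cells of a type and a weaker signal per cell cannot be told apart. The nearest gene is named below as a landmark, not as a target.

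Sequences of 3 strong, single-copy regions of at most 300 bp are shown because they carry protected stretches seen in both animals. They are read from the mm10 reference on the plus strand, and capitals mark bases inside a footprint of both libraries. The first is nearest to Lrrc74a, at 66.8 kb, with Irf2bpl on its other side, the second is nearest to Irf2bp2, and the third is the strongest such region nearest to Foxo1.
chr12:86801221-86801500: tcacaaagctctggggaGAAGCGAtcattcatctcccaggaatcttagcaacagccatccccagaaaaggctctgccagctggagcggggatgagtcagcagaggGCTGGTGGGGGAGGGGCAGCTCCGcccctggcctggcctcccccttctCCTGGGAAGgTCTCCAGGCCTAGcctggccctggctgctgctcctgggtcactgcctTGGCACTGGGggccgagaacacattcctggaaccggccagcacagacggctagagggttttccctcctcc
chr8:126666501-126666780: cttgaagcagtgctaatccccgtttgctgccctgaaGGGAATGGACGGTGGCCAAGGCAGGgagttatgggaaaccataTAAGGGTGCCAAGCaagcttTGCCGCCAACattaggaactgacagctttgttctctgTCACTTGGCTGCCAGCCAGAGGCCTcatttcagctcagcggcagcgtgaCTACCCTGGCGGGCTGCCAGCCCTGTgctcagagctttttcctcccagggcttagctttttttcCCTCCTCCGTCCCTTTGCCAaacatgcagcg
chr3:52601141-52601360: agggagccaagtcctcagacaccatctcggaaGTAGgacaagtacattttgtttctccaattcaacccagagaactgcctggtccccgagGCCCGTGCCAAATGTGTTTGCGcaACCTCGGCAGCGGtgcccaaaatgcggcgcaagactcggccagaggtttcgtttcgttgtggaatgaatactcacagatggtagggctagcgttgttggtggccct

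The Lrrc74a region had a signal of 13.7 in replicate 1 and 8.60 in replicate 2, and the Irf2bp2 region had 13.2 and 8.75. The percentile among a library's peaks was 98.1 and 98.3 for the first, and 97.8 and 98.5 for the second. The signal of the Foxo1 region was 9.69 and 5.64. Shared footprints covered 63 bases of the Lrrc74a region and 120 bases of the Irf2bp2 region. The NFI core, TTGGCA on either strand, occurred at 2 places in the Irf2bp2 region and at 1 in each of the other 2. All of these touched a shared footprint, which was not the rule: over all far regions 264 of 932 NFI matches did, or 28.3%. In another strong single-copy region, chr1:90497661-90497880, not printed here, 1 of 2 NFI cores did. The Lrrc74a region also held an AP-1 site (TGAGTCA) and an E-box (CAGCTG), neither of which touched a shared footprint.

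CTCF matches that touch a footprint of both libraries are shown as 60-base windows in the orientation of the motif. Here capitals mark the consensus, not the footprint. The windows of the Chd2, Sestd1 and Kdm8 regions are on the minus strand and that of the Pcmtd1 region is on the plus strand.
chr7:73618491-73618550: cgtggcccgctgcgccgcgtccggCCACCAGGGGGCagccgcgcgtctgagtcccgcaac
chr2:77342165-77342224: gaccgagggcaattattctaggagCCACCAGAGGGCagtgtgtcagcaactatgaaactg
chr7:125393809-125393868: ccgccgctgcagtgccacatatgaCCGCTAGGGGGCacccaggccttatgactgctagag
chr1:7398188-7398247: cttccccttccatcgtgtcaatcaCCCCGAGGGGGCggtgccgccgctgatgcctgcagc

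E-boxes with the GC core that touch a footprint of both libraries are shown likewise, on the plus strand, for the regions nearest to Wnt7b and Cdkn2aipnl. Capitals mark the E-box.
chr15:85634667-85634726: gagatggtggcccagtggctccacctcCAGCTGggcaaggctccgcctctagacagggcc
chr11:51916114-51916173: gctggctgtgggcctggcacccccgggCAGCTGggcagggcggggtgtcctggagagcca

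The 4 regions with these CTCF windows had signals of 14.0 and 10.97 near Chd2, 8.15 and 6.51 near Sestd1, 8.12 and 6.84 near Kdm8, and 7.37 and 6.20 near Pcmtd1, replicate 1 first. Their percentiles were higher in replicate 2 in each case. The 2 regions with the E-box windows went the other way: the Wnt7b region had 18.4 and 9.31, and the Cdkn2aipnl region had 17.2 and 5.64.

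Far intergenic regions were mostly weak. Their median signal was 1.63 in replicate 1 and 1.14 in replicate 2, against 2.03 and 1.60 in nearer intergenic regions, 1.88 and 1.35 in introns, and 4.14 and 3.06 at promoters. Because the scaling between libraries is not stated, signals were also ranked among all peaks of their own library. The median percentile of far regions was 45.9 in replicate 1 and 42.2 in replicate 2. It was 57.1 and 58.5 in nearer intergenic regions, so far regions ranked lower in both animals. The quartiles overlapped: in replicate 1 they were 24.6 and 65.1 in far regions and 37.4 and 72.4 in nearer regions. Region width did not separate these classes, with a median of 201 bp for far and 200 bp for nearer regions.

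The libraries ranked these regions alike in the main. Spearman's rho of signal between libraries was 0.73 over the 2871 far regions and 0.87 over all replicated regions, as descriptions over regions. Only 8 far regions differed by more than 50 percentile points. The largest such difference was at chr15:37135561-37135880, between Zfp706 and Grhl2, with a signal of 0.703 in replicate 1 and 1.92 in replicate 2. The strongest signal in replicate 1 was 18.7, at chr8:20122141-20122320, with 13.9 in replicate 2. In replicate 2 it was 39.7, at chr3:5860361-5860530, with 11.1 in replicate 1. Both of these extremes lie in sequence that is not single-copy: 61.4% of the 36-base words of the chr8 region and 100% of those of the chr3 region occurred more than once in the reference. At least 50% of such words were repeated in 26 far regions, or 0.906% (0.592 to 1.32), and in 0.622% of all replicated regions, and the part of read placement in their signal was not tested.

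**Figure D1:**
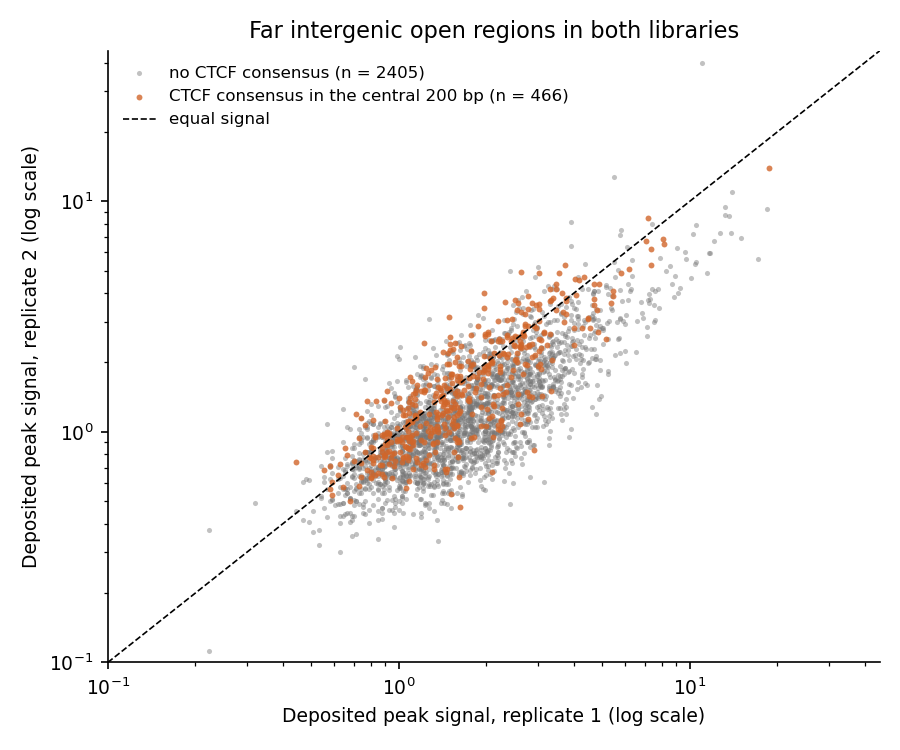
Each point is 1 far intergenic open region, with its deposited peak signal in replicate 1 on the horizontal and in replicate 2 on the vertical log axis; orange points hold a CTCF consensus in the central 200 bp. Most grey points lie below the line of equal signal, while orange points lie close to it (median ratio of replicate 1 to replicate 2 of 1.10 with and 1.44 without the consensus).

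Fewer than 50% of far intergenic regions found in either animal held a peak in both. Of 7034 merged far regions, 2871 held a peak of both libraries (40.8%, 39.7 to 42.0), against 51.2% of all 63849 merged regions, 69.5% at promoters, 47.5% of nearer intergenic regions, 39.2% (38.5 to 39.9) in introns and 39.0% (37.6 to 40.4) over exons. Another 2588 held a peak of replicate 1 alone and 1575 of replicate 2 alone. Some of these overlapped a run of bases with a q-value below 0.05 in the other animal. Such a run was listed in replicate 2 for 58.7% of those with a peak in replicate 1 alone. In replicate 1 it was listed for 34.2% of those with a peak in replicate 2 alone. The share over other classes or other genome was not counted, so these values do not show openness in the other animal.

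Open regions thinned out steadily with distance from coding genes. Genome that satisfies the location rule amounted to 963 Mb of 2648 Mb, or 36.4%, and held 2.98 far regions per Mb, whereas all replicated regions stood at 12.3 per Mb of the whole genome. Intergenic genome 1 to 50 kb from a coding start held 10.2 replicated regions per Mb, counting only regions over 1 kb from any annotated start. That filter was not applied to the genome or to the far bins, so this value is low beside theirs. Beyond 50 kb the density was 7.09 per Mb at 50 to 100 kb, 3.87 at 100 to 200 kb, 1.85 at 200 to 500 kb and 0.609 at 500 to 1000 kb. Only 7 regions lay over 1000 kb from a coding start, at 0.0914 per Mb. Signal declined along the same axis: the median percentile went from 50.4 and 48.5 in the first of these bins to 28.6 and 23.3 at 500 to 1000 kb, replicate 1 first. The share holding a CTCF consensus went from 18.9% to 8.65% over the same bins, the last being 9 of 104 regions.

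**Figure D2:**
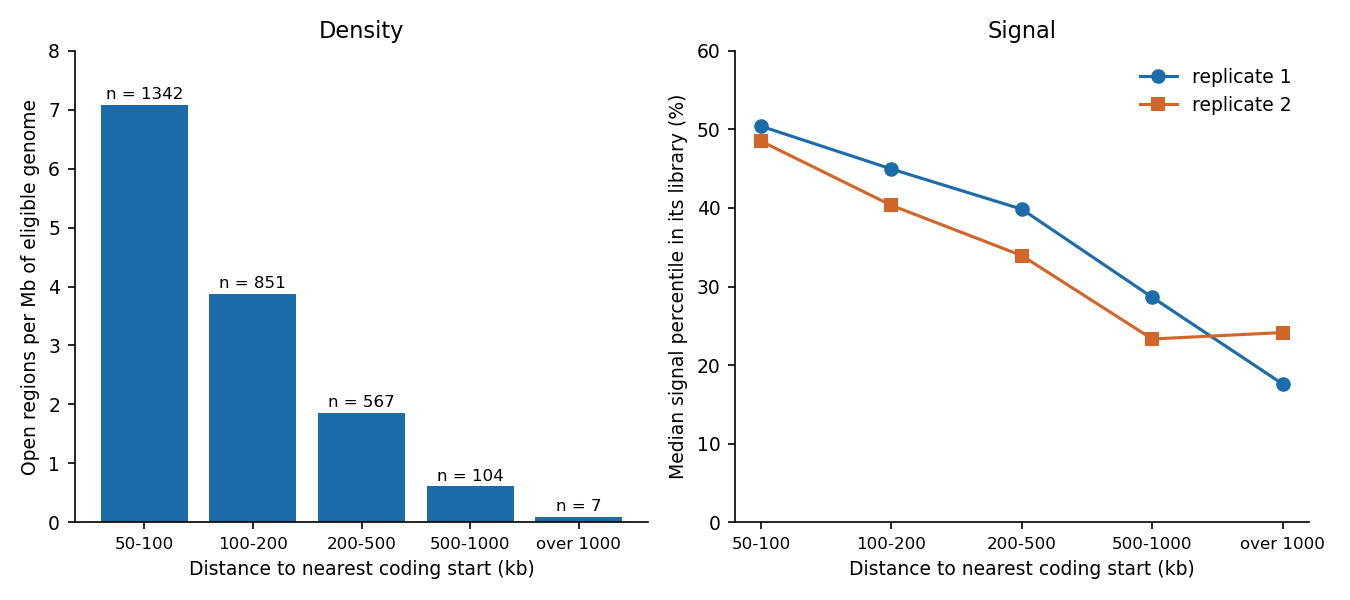
Left, far intergenic regions per Mb of eligible genome by distance to the nearest coding start, with the number of regions above each bar; right, the median within-library signal percentile in the same bins for each replicate. Density falls from 7.09 to 0.0914 per Mb, and both libraries' percentiles fall up to 1000 kb; the last bin holds 7 regions.

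The median distance to a coding start was 107247 bp. At the limit itself, the region just inside lay 50.019 kb from the nearest counted start of Cyld, with a signal of 1.75 and 1.88. Another annotated start of Cyld, not counted by the rule, lay 20130 bp from it. The region just outside lay 49.99 kb from Ddx3x, with 2.60 and 1.46. The farthest region lay 2194589 bp from Pik3c3 and was weak, at 1.11 and 0.966. The next farthest, chr1:102628161-102628360, stood 2140169 bp from Cdh20 and was strong in both animals, with a signal of 5.51 in replicate 1 and 12.7 in replicate 2. It was 1 of 12 far regions with a signal in replicate 1 less than 0.5 times that in replicate 2, and 30.9% of its 36-base words were repeated in the genome. Among chromosomes, the density was highest on chromosome 2, at 4.76 far regions per eligible Mb. The X chromosome, present once in these males, held 1.10 per Mb, and the Y chromosome held 3 regions in 68.1 eligible Mb. These 3 were weak, with signals of 0.222 to 0.764 in replicate 1. From 63.2% to 76.4% of their 36-base words were repeated in the genome. The Y is part of the eligible genome behind the 2.98 per Mb. Replicated regions of all classes were sparse on the X too, at 4.43 per Mb against 12.3 over the genome.

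Most far regions carried a footprint found in both libraries. The share was 82.7% (81.2 to 84.0; 2373 regions), against 86.1% of all replicated regions, 88.8% (87.8 to 89.6) of nearer intergenic and 86.1% of intronic regions. The difference was smaller at equal signal, but not at equal width. When all replicated regions were split into 5 equal signal groups by the lower of their percentiles, the weakest group contained 41.8% of far regions and 22.1% of nearer ones. Within that group 69.1% (66.4 to 71.7) of far and 71.5% (68.7 to 74.2) of nearer regions had a shared footprint. In the next 2 groups the shares were 88.2% and 94.6% of far regions and 88.1% and 94.9% of nearer regions, with overlapping intervals. In the strongest group all 73 far regions had one. Far regions held 4665 shared footprints with a median width of 9 bp, covering 8.0% of their bases, and 498 regions had none.

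**Figure D3:**
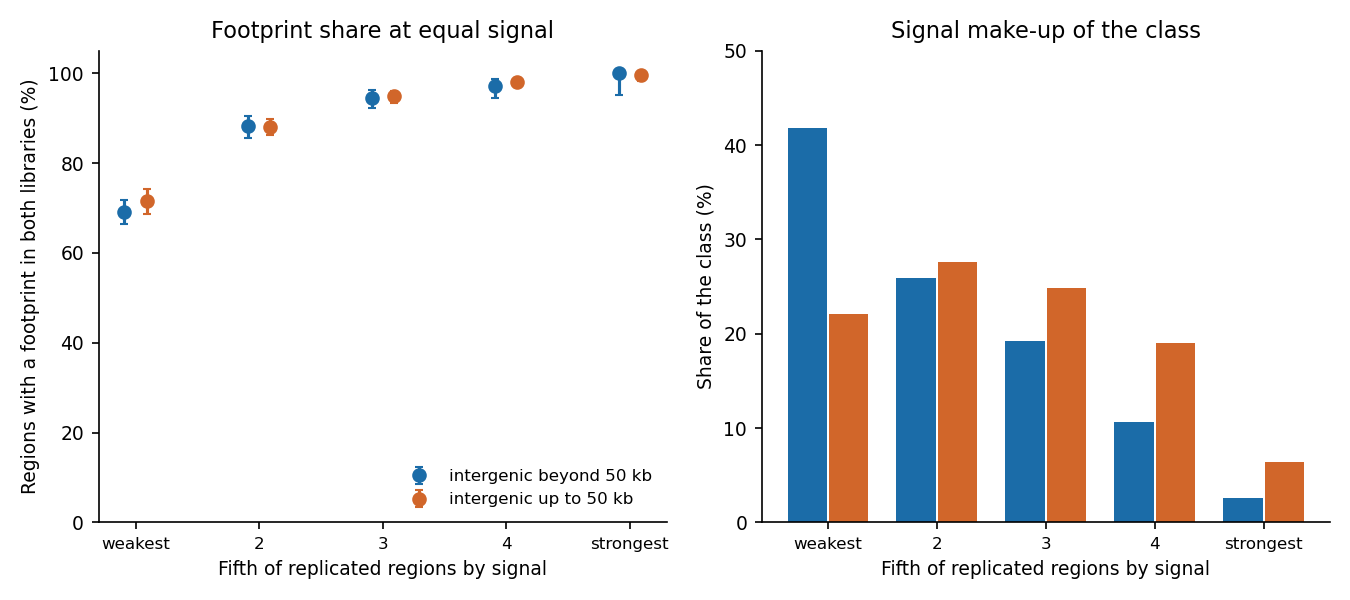
Left, the share of far (blue) and nearer (orange) intergenic regions with a footprint in both libraries within each of 5 equal signal groups of replicated regions, with exact 95% intervals; right, how each class divides over these groups. At equal signal the intervals of the classes overlap, from 69.1% and 71.5% in the weakest group to 100% and 99.7% in the strongest, and far regions are most frequent in the weakest group.

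Motif letters were searched on both strands in the central 200 bp of each region and in 200 bp windows 1 kb to either side. A CTCF consensus was found in 466 far regions, or 16.2% (14.9 to 17.6), against 13.5% of all replicated regions and 0.801% of the flanking windows. Nearer intergenic regions held it at 26.8% (25.5 to 28), and introns at 17.9%. Of 486 CTCF matches within far regions, 429 touched a shared footprint, or 88.3%. Regions with the consensus were narrow: it was in 27.7% of far regions up to 180 bp wide and in 1.80% of those over 300 bp. A shared footprint was present in 93.6% of far regions with the consensus and in 80.5% of those without.

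Among the other motifs, CAGCTG, NFI, AP-1, TEAD and FOX letters were among those at higher shares in far than in nearer intergenic regions. The E-box CAGCTG, a preferred site of MyoD, was in 28.4% (26.8 to 30.1) of far regions, 22.6% of nearer intergenic regions, 26.7% of introns, 19.8% of all replicated regions and 9.75% of flanking windows. The NFI core TTGGCA was in 24.1% (22.5 to 25.7) of far regions, 16.4% of nearer ones, 20.5% of introns, 13.9% of all and 10.7% of flanking windows. The AP-1 site TGAGTCA was in 9.33% (8.30 to 10.46), against 7.36% of nearer regions, 7.91% of introns, 5.15% of all and 3.69% of flanking windows. TEAD letters (CATTCCA) were in 4.46% (3.73 to 5.28) of far regions, 3.31% of nearer ones, 4.06% of introns and 3.41% of flanking windows. FOX letters (TGTTTAC) were in 2.65% (2.09 to 3.30) of far and 2.07% of nearer regions, with 3.08% of flanking windows. The nearer regions' shares lay outside the far regions' counting intervals for each of these motifs, though only narrowly for FOX (2.07% against a lower limit of 2.09%). Counting error in the nearer regions' shares was not included. The E-box CAGGTG went the other way, at 14.4% (13.1 to 15.7) of far regions and 16.8% of nearer intergenic regions, with 14.1% of flanking windows and 13.9% of all replicated regions. Letters of 3 other muscle factors were also at lower shares in far than in nearer regions: the MEF3 letters (TCAGGTT) at 2.23% and 3.06%, MEF2 at 1.36% and 1.56%, and SRF at 0.940% and 1.12%. For MEF2 and SRF the nearer regions' shares lay within the far regions' counting intervals. The median GC content was 53.5% in far regions and 45.5% in flanking windows, and the part of base composition in these shares was not tested.

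Some letters were rarer inside than outside. The MEF2 consensus was in 1.36% of far regions, 1.18% of all replicated regions and 3.26% of flanking windows, and only 3 of its 51 matches touched a shared footprint. GATA letters (AGATAA) were in 4.95% of far regions, 3.40% of all and 10.7% of flanking windows. SOX letters (CATTGT) were in 7.28%, 5.47% and 11.02%. The share of matches touching a shared footprint also differed: 28.3% for NFI, 28.9% for CAGGTG and 15.6% for CAGCTG, against 88.3% for CTCF. Shared footprints covered 8.0% of the bases of far regions, and a longer consensus has more bases to be touched. The share expected from position and length alone was not computed, so these values are descriptions. The SP letters GGGCGG, typical of CpG-rich promoters, were in 11.4% of far regions, 57.9% of promoters and 34.7% of all replicated regions. They were in 13.1% of introns and 16.1% of nearer intergenic regions.

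**Figure D4:**
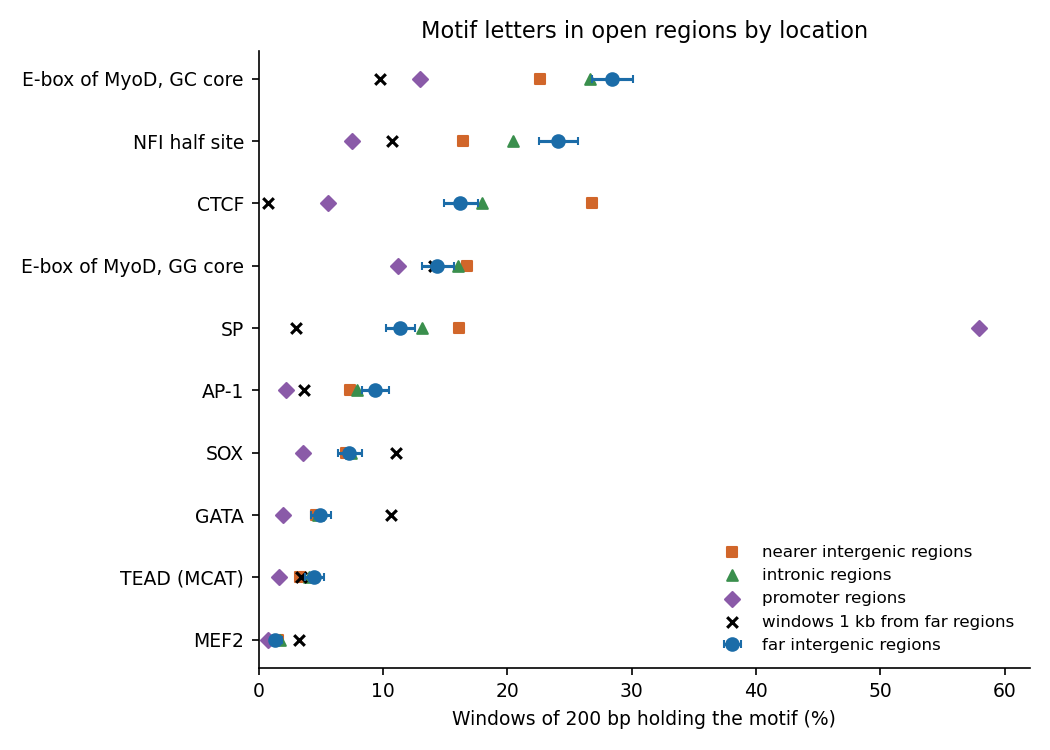
Share of 200 bp windows holding each motif, for far intergenic regions (blue, with exact 95% intervals), nearer intergenic, intronic and promoter regions, and windows 1 kb from far regions. CTCF is highest in nearer intergenic regions (26.8%), SP letters at promoters (57.9%), and the GC-core E-box (28.4%) and NFI core (24.1%) are highest in far regions.

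The 2 animals weighted these kinds of region differently. In far regions with a CTCF consensus the median ratio of the signal in replicate 1 to that in replicate 2 was 1.10 (quartiles 0.909 and 1.34), against 1.44 (1.13 and 1.88) in far regions without it. As percentiles, CTCF-holding far regions stood at 43.1 in replicate 1 and 52.7 in replicate 2, and the others at 46.7 and 40.6. The ratio was 1.55 with and 1.35 without the AP-1 site, 1.45 with and 1.35 without CAGCTG, and 1.42 with and 1.35 without the NFI core. The other E-box, CAGGTG, went the opposite way, at 1.23 with and 1.40 without. Differences were small for SOX (1.41 with, 1.37 without), SP (1.39 and 1.37), GATA (1.37 and 1.38) and TEAD letters (1.35 and 1.38). The CTCF pattern recurred in nearer intergenic regions (1.06 with, 1.36 without) and in introns (1.06 and 1.44). It also held within far regions over 180 and up to 220 bp wide, at 1.03 with and 1.42 without the consensus, but not in the 9 regions over 300 bp with the consensus, where the ratio was 1.79. Animal and library cannot be told apart here, since each animal gave 1 library.

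Few far regions were CpG-rich, a trait they shared with introns. By a GC content above 50% and an observed over expected CpG ratio above 0.6, 210 were CpG-rich (7.31%, 6.39 to 8.33). The share was 6.65% (6.10 to 7.23) in introns and 13.3% (12.4 to 14.3) in nearer intergenic regions. It was 41% of all replicated regions and 75.9% at promoters. These 210 had a median percentile of 62.3 in replicate 1 and 66.6 in replicate 2, above the 44.95 and 40.9 of the other far regions. The highest CpG content was at chr17:4908021-4908540, 86.4 kb from Arid1b, with a signal of 7.91 and 5.66. At least 50% of the bases were repeat-masked in 33 far regions, or 1.15%, against 0.9% of all replicated regions. The share was 1.62% in introns and 1.76% in nearer intergenic regions.

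A small group stood at start sites that the rule does not count as protein-coding. Within 500 bp of such a start lay 77 far regions (2.68%), of which 31 were CpG-rich. Among the 10 strongest far regions, chr13:107890101-107890460 lay 37 bp from a start of Zswim6, a gene typed as a processed transcript in GENCODE M21, with a signal of 15.02 and 6.95. Starts of long non-coding RNAs lay 25 bp from chr15:68363201-68363540 (Gm20732) and 139 bp from chr16:25058941-25059500 (A230028O05Rik). In the RefSeq annotation of the same assembly, 20 far regions lay within 500 bp of an mRNA start, including those of Zswim6, Extl3 and Ppargc1a, the last encoding a coactivator of mitochondrial genes. For 9 of the 20 the nearest such start came from a curated transcript, and for the others from a model not marked as curated. By RefSeq, 2259 of the 2871 regions (78.7%) were still outside every gene body and over 50 kb from an mRNA start. Counting GENCODE start sites of every kind, 823 far regions (28.7%) were over 50 kb from any start.

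Most far regions stood alone. With neighbours joined when at most 20 kb apart, 1723 (60.01%) were single, 354 pairs were formed, and 126 runs of 3 or more held 440 regions. The longest run had 9 regions over 43.2 kb between Lrrc74a and Irf2bpl, the latter a transcriptional regulator, and all 9 had a shared footprint. Its signals ranged from 2.28 to 13.7 in replicate 1 and from 1.43 to 8.60 in replicate 2, and the region printed above was its strongest. A run of 8 lay between Rgs3 and Zfp618, with medians of 2.65 and 1.81 and a CTCF consensus in 3 regions. Runs of 7 between Gm11733 and Tnrc6c and of 6 between Cstad and 1700001O22Rik held no CTCF consensus. The run of 6 between Tcf12, which encodes an E-box partner of MyoD, and Zfp280d was weak, with medians of 1.43 and 0.943.

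The far regions had 1508 different nearest coding genes, and 831 of these were nearest to a single region. Foxo1, Gm26897 and Med13l each had 11, Bcor and Klf4 had 10, and Nfe2l3 and Qk had 9, while Cdh26, Dhx35 and Gm826 had 8. Because density depends on distance, each gene's eligible genome was multiplied by the density of far regions at the same distances. For Foxo1, which encodes a transcription factor of muscle atrophy and fasting, this gave 0.733 regions against the 11 found, in 0.255 Mb. For Qk, an RNA-binding protein gene, it gave 0.825 against 9, and for Klf4, a zinc finger factor gene, 1.14 against 10. These genes were picked for their counts, so the excess is a description.

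The 11 Foxo1 regions lay 133 to 373 kb from its start, and 9 had a shared footprint. Their signals ran from 1.01 to 9.69 in replicate 1, with a median of 2.35, and from 0.775 to 5.64 in replicate 2, with a median of 1.49. The strongest of them is printed above, and the next highest values were 2.996 in replicate 1 and 2.19 in replicate 2. None of the 11 held a CTCF consensus in its central 200 bp. Around Klf4, 2 of the 10 regions dominated: one at 119 kb had 8.85 and 3.86, and one at 581 kb had 7.11 and 2.61. The other 8 were at or below 2.61 in replicate 1 and 2.20 in replicate 2.

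Gene lists for muscle and for the other cells of the tissue divided these regions unevenly. Regulators of muscle genes were nearest to 41 far regions, 1.43% of the regions against 0.528% of the eligible genome, with 15.3 expected from density at the same distances. They belonged to 10 of 29 genes. Foxo1, Maf (7), Runx1 (6) and Mef2a (4) led the list. The 4 Mef2a regions, 71.8 to 127 kb from the gene for a muscle activator, had signals from 2.52 to 5.28 in replicate 1 and from 1.21 to 3.03 in replicate 2. Genes of growth, stress and the clock were nearest to 66 regions, 2.30% against 0.877% of the eligible genome and 24.7 expected. Zfp36l1, an mRNA decay factor gene, had 8 of these and Irs2, an insulin signalling adaptor gene, had 5.

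The 49 structural muscle genes were nearest to 1 far region, by Cmya5 at 142 kb, with a signal of 2.52 and 0.959. Only 11 of the 49 had any eligible genome, 1.21 Mb in all, in which 3.39 regions were expected. Limb and axis patterning factors were nearest to 46 regions with 39.5 expected, led by Meis1 and Tbx3 with 5 each. Neuron and Schwann cell genes were nearest to 2 regions, both by Pmp22, with 8.55 expected.

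Markers of other cells of the tissue also had far regions. Satellite cell genes were nearest to 8, with 4.36 expected, and fibroblast and tendon genes to 15, with 7.96 expected. These belonged to 3 of 16 satellite cell genes and to 6 of 20 fibroblast and tendon genes. Hey1 led the satellite cell list with 4 regions, whose signals ran from 0.962 to 2.60 in replicate 1 and from 0.966 to 1.27 in replicate 2. Cd34, a surface protein of progenitors and endothelium, had 3 regions. The one 59.0 kb away had a signal of 7.40 in replicate 1 and 7.99 in replicate 2, and the others had 4.65 and 3.04, and 1.85 and 1.37. Dcn, the gene of the matrix protein decorin, had 4 regions, the strongest at 5.51 and 5.48. Col1a1, a fibrillar collagen gene, had 3 within 0.026 Mb of eligible genome, with signals of 1.96 and 3.43, 3.46 and 2.52, and 1.84 and 1.31. Endothelial, smooth muscle and pericyte genes were nearest to 10 regions, 6 of them by Cdh5, with 4.25 expected. Macrophage and lymphocyte genes were nearest to 3, with 0.654 expected, all by Ptprc, the only 1 of these 16 genes with eligible genome. Region signal does not name the cell type in which a region was open.

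**Figure D5:**
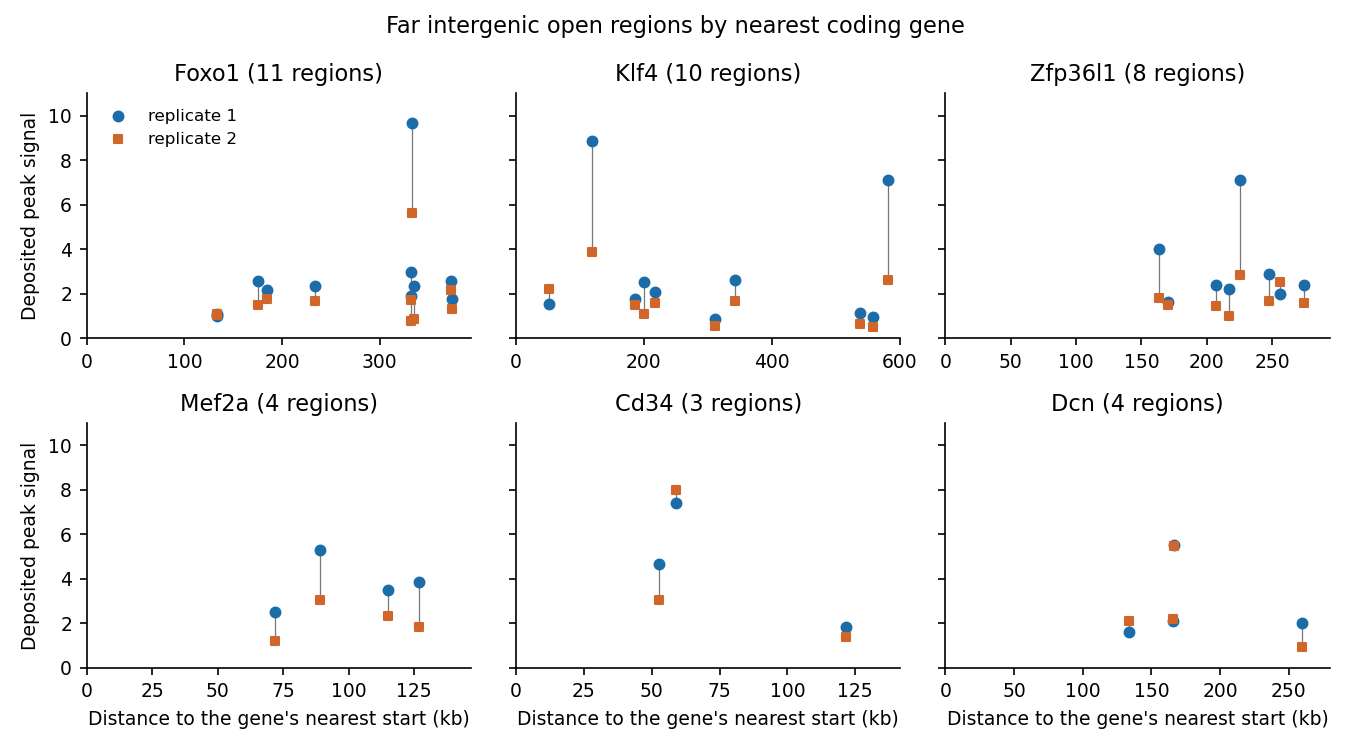
Deposited peak signal of every far intergenic region of 6 genes against its distance from that gene's nearest start, with replicate 1 as circles and replicate 2 as squares joined by a line. Foxo1 has 1 region well above the rest in both libraries, Klf4 has 2 in replicate 1, and the strongest Cd34 and Dcn regions have nearly equal signals in the libraries.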

How the data were processed

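DNase-seq libraries of gastrocnemius from 2 animals, labelled as separate biological replicates, were used as deposited, 1 per animal. The authors deposited a peak signal for each peak (per library, mm10), a q-value for each run of bases below 0.05, and footprints whose score is 0.01 on every line, so footprints were used by position only. For the aligner, the peak caller, their versions and the scaling between libraries, nothing is given in the sources used here.

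Peaks were merged when sharing at least 1 bp, and a region took the signal of its highest peak in each library. Signals were ranked as percentiles of all peaks of the library's shorter list. Location came from GENCODE M21, sequence and repeat masking from the RefSeq copy of the mm10 assembly. A shared footprint is the overlap of a footprint of each library, and a motif match touches it when they share at least 1 bp. Motifs were 25 consensus patterns. CTCF, MEF2, SRF, glucocorticoid receptor, NRF1 and REST are named only. Eligible genome was counted on a 1 kb grid. Expected counts used 11 distance bins. Intervals are exact Clopper-Pearson at 95%.

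The members and the 9 gene lists were chosen with earlier results of these data known. Named regions and genes were the strongest, farthest, nearest the limit, most CpG-rich, most clustered, most divergent between libraries or most frequent as nearest gene, plus up to 4 genes per list, and the RefSeq comparison, the regions at RefSeq starts and the library ratios by motif were added after seeing the data. The functions for overlap, distance, motif and interval were tested on simulated data. Python 3.11.15, numpy 2.4.6, pandas 2.3.3, scipy 1.17.1 and pysam 0.24.0 were used.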

Additional observations from a re-analysis of the deposited data

How the results depend on the processing

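The main values were 2871 regions, a difference of -25.3 points from other replicated regions in the median of the lower of both percentiles, a shared footprint in 82.7%, a CTCF consensus in 16.2% and 2.98 regions per Mb. Of 49 alternative values, 17 stayed within the counting interval, the SD between libraries or 1.5 times the count, and 32 moved. The percentile difference, the one value that can change sign, was negative under all 9 of its alternatives. A distance limit of 100 kb gave 1529 regions, a percentile difference of -28.8, a footprint share of 80.7%, a CTCF share of 13.9% and 1.98 per Mb. A reciprocal overlap of 50% gave a footprint share of 86.8%, a CTCF share of 18.8% and 2.44 per Mb. Peaks at or above the median signal gave 906 regions, a percentile difference of -12.4, a footprint share of 95.8%, a CTCF share of 18.5% and 0.941 per Mb. The longer peak lists gave 5744 regions, a percentile difference of -22.3, a footprint share of 57.9%, a CTCF share of 12.1% and 5.96 per Mb. Excluding protein-coding gene bodies only gave 3.39 per Mb, and start sites of all annotated genes gave 823 regions, a percentile difference of -28.3 and 1.98 per Mb. Footprints sharing at least 50% of the shorter gave 79.6%. Peaks of 1 library alone, leaving out the other, gave 4531 to 5553 regions, -23.2 to -22.3 points, footprint shares in that library of 81.1% to 86.7%, CTCF shares of 11.7% to 12.2% and 4.71 to 5.77 per Mb. These single-library lists include regions absent from the other peak list. Motif windows of 100 and 300 bp and distance from the region centre moved none of these values, and meeting the location rule in both GENCODE and RefSeq, added after seeing the data, gave 2259 regions. No paired analysis was possible because there is 1 group. Depth is unknown, so weak regions missing from a list cannot be told from closed ones.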
